A study of Mus musculus with 8 samples.

Results

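The genes of cholesterol and fatty acid synthesis, with the SREBP proteins that control both, were compared between 2 fractions sorted from 4T1, a mammary carcinoma line of the mouse. The set held 31 genes named by symbol and matched to Ensembl IDs in the count table, which listed 16341 genes. All 31 were counted, and all 31 passed the low-count filter that left 11717 genes tested. By role, 18 encode enzymes of the sterol pathway, 5 control SREBP or carry sterol, and 8 encode enzymes that supply, build, modify or activate fatty acids. The comparison asks how the expression of these genes differed between cells with and without SCA1, and whether sterol and fatty acid genes differed alike.

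SCA1, the product of Ly6a, sits on the cell surface. The 4T1-Sca1+ group is the CD45-Sca1+ fraction and the 4T1-Sca1- group the CD45-Sca1- fraction, with 4 libraries each. No genotype, treatment or time differs between the groups in the labels. The source label and the study's text give parental 4T1 cells as the origin, but the labelled extraction protocol describes tumor that was stained and passed over magnetic columns. Both groups come from 1 line, and nothing in the labels tells if each replicate was sorted on its own, so p-values measure the spread between these libraries, which may be technical. In bulk RNA of this kind, fewer cells of a type and less RNA per cell cannot be told apart.

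Total counts per library ran from 13561804 to 16968215. Ly6a itself had a log2 fold change of 6.42 ± 0.27 (standard error), in the direction of the labels. The libraries 4T1-Sca1+ replicate 3 and 4T1-Sca1- replicate 2 stood apart: over 9264 genes their deviations from the group mean correlated with transcript GC content at 0.69 and 0.62, against -0.50 to -0.05 in the other 6. Over 11616 genes the log2 fold change correlated with GC content at 0.23, as a description across genes, which are not independent replicates. The members ran from 41.9% to 59.1% GC, so members whose direction or call changed with a correction for GC content, or without those 2 libraries, are given with both results. Mvd, Srebf1 and Srebf2, whose estimates fell with the correction, are given so too. Others rose and kept their calls: Hmgcs1 (log2 fold change 0.57 to 0.67), Hsd17b7 (0.60 to 0.68), Stard4 (0.40 to 0.48), Msmo1 (0.46 to 0.53), Acsl3 (0.35 to 0.44) and Elovl6 (0.24 to 0.33).

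Cholesterol is made from acetyl-CoA by way of mevalonate, isoprenoid units, squalene and lanosterol. Fatty acids start from the same acetyl-CoA, which is carboxylated, extended to palmitate, and then elongated, desaturated and activated. SREBP proteins are made as membrane-bound precursors. Scap escorts them to the Golgi for cleavage when sterols are low, Insig proteins hold the complex back when sterols are high, and the released fragments raise transcription of sterol and fatty acid genes. In this scheme SREBP-2, from Srebf2, is known mainly for sterol genes, and SREBP-1, from Srebf1, mainly for fatty acid genes. Many cancer lines make much of their own fatty acid and sterol.

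Because SREBP binds promoters together with NF-Y and Sp1, the DNA just before the start of the members was searched for the letters these proteins are known to prefer. RefSeq windows on GRCm38.p6, from 250 bases before to 50 after a start, were given for 25 members. The letters searched on both strands were TCACNCCAC (a sterol regulatory element), CCAAT (the NF-Y box), CACGTG (an E-box, which SREBP can also bind) and GGGCGG (the GC box of Sp1). Matches of different motifs did not overlap in the members' windows, as 0 such pairs were found. Bases before the start are printed below for 3 genes: Hmgcs1 as the member with the sterol regulatory element letters, Insig1 as the member with the highest fold change, and Sc5d as the sterol enzyme that was lower in 4T1-Sca1+ cells. Each runs 5′ to 3′ on the strand of its gene, and capitals mark the matches. No base at or after an annotated start is shown.

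Hmgcs1 (chr13:119690101-119690350, plus strand): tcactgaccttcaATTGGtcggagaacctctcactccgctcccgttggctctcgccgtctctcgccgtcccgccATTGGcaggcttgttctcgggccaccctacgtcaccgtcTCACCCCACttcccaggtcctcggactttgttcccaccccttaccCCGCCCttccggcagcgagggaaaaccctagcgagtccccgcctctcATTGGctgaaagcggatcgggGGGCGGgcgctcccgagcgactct

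Insig1 (chr5:28071162-28071362, plus strand): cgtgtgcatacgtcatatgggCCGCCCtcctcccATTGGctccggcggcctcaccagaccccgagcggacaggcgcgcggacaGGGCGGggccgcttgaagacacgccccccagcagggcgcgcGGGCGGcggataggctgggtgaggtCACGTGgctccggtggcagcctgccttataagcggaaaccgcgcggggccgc

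Sc5d (chr9:42264301-42264550, minus strand): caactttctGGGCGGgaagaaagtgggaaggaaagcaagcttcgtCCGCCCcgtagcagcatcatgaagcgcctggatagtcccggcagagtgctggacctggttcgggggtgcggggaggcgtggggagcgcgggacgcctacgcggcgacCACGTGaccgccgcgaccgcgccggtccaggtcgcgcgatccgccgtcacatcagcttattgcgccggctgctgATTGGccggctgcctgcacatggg

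In Hmgcs1 the sterol regulatory element letters began 137 bases before the start, between CCAAT boxes on the opposite strand that began 176 and 45 bases before it. Insig1 carried an E-box that began 101 bases before its RefSeq start and an inverted CCAAT box 216 bases before that start. The RefSeq start of Insig1 lies after its GENCODE start at 28071363, and the printed bases end at 28071362, just before the GENCODE start. These Insig1 matches are therefore nearer to the end of the printed bases than the distances given. Sc5d, although lower in 4T1-Sca1+ cells, also carried an E-box (98 bases before) and an inverted CCAAT box (24 bases before). Its RefSeq start lies before the GENCODE start at 42264256, and the bases after the RefSeq start were not matched to a GENCODE transcript of Sc5d. Over the 25 members, CCAAT was present in 21 (84.0%), including 14 of 15 sterol enzymes, 3 of 4 control genes and 4 of 6 fatty acid enzymes, against 43.24% of 9167 tested genes with a window and 41.1% of 27025 genes with a window. CACGTG was present in 5 members, which were Hsd17b7, Sc5d, Dhcr7, Scap and Insig1, against 11.96% of tested genes. GGGCGG was present in 21 (84.0%) against 70.91% of tested genes, and TCACNCCAC in 1 against 1.36%. These are matches of letters, not binding sites, and no relation between them and the fold changes was tested.

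Of the 31 members, 22 were higher in 4T1-Sca1+ cells, 3 were lower and 6 did not pass (adjusted p under 0.05, edgeR's quasi-likelihood test with Benjamini-Hochberg adjustment over all genes tested). The background is broad, since 61.5% of all tested genes passed in either direction, 31.3% as higher and 30.2% as lower. The members' share of higher genes (71.0%) was thus above that background, and their share of lower genes was below it. The differences were moderate. The median log2 fold change of the members was 0.36 (1.28-fold), against 0.0074 over all tested genes, whose quartiles were -0.217 and 0.280. Only 5 members were higher by at least 1.5-fold (Insig1, Sqle, Scd1, Acss2 and Hsd17b7), where 11.7% of all tested genes were. All 4T1-Sca1+ libraries lay above all 4T1-Sca1- libraries for 22 members (26.8% of tested genes) and below them for 2 members (27.9% of tested genes), and the groups overlapped for 7.

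**Figure D1:**
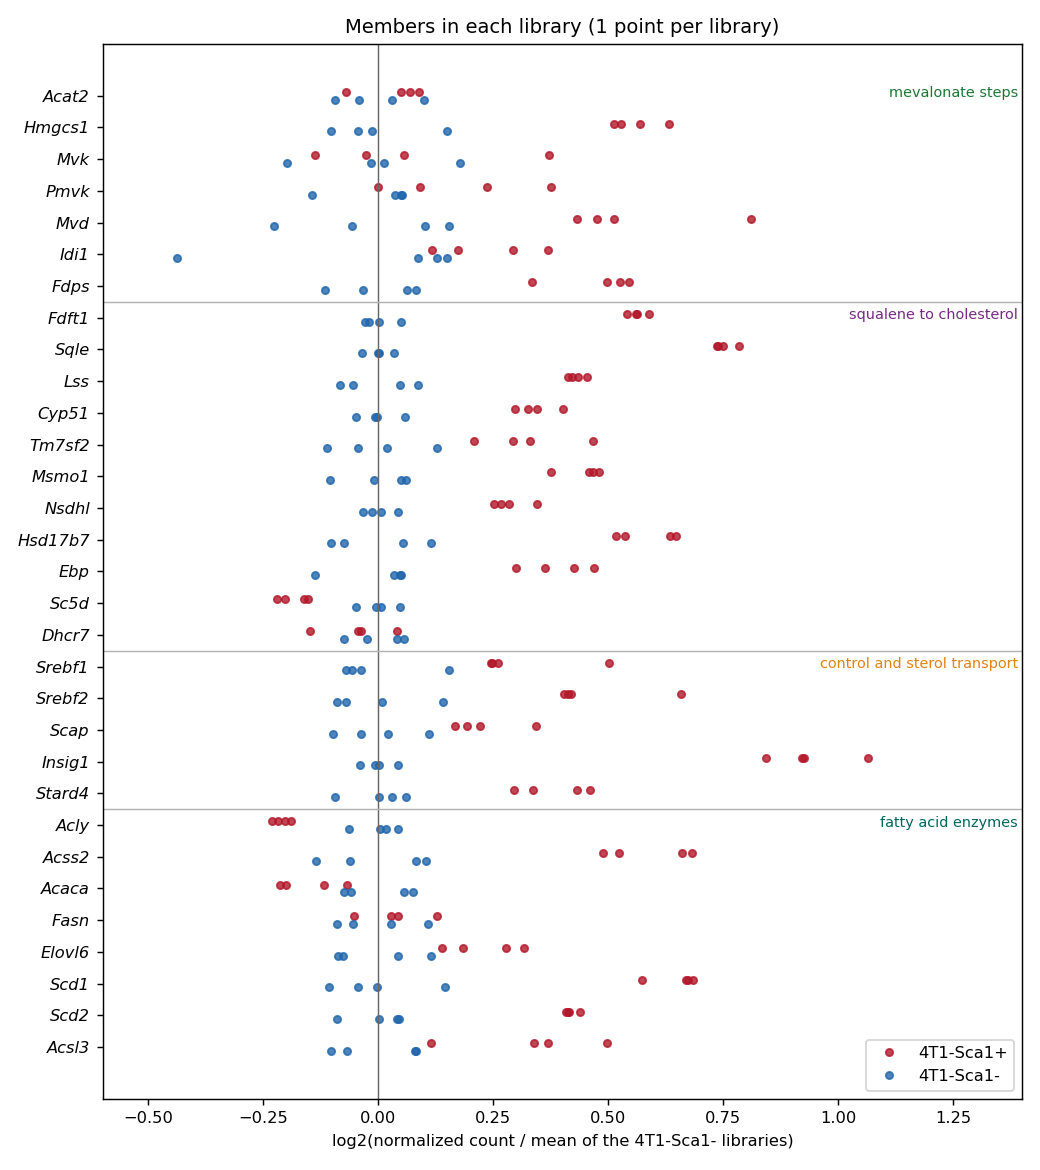
Each point is 1 library: the log2 ratio of its normalized count to the mean of the 4T1-Sca1- libraries (horizontal axis), for the 31 members in pathway order (vertical axis), with 4T1-Sca1+ in red and 4T1-Sca1- in blue. The groups separate for 24 members, with 4T1-Sca1+ libraries on the right for 22 of them and on the left for Sc5d and Acly.

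Other cells could be in a sorted fraction, so defining markers were read in the same libraries. The epithelial markers Epcam, Krt8 and Krt18 were abundant in both groups, and the 6 epithelial markers summed to 2378 to 2570 CPM (counts scaled to a common library total) in 4T1-Sca1+ and 2099 to 2183 CPM in 4T1-Sca1- libraries. Most of that sum came from Krt8 and Krt18, which were higher in 4T1-Sca1+ cells (1.24 and 1.30-fold). The adhesion protein gene Cdh1 was lower (log2 fold change -0.69 ± 0.04, adjusted p 6.19e-10, edgeR), as was the keratin gene Krt14 (-0.23 ± 0.06, adjusted p 0.00346, edgeR), and Epcam did not pass. Krt5, a basal keratin, was at or near 0. Adipocytes, which are rich in fatty acid enzymes, left almost no trace: 4 of 6 markers were counted, they summed to at most 0.619 CPM in any library, and Adipoq, Plin1 and Cidec reached at most 1 count. Leukocyte markers summed to 27.2 to 31.8 CPM in 4T1-Sca1+ and 14.8 to 17.5 CPM in 4T1-Sca1- libraries. Of those 9 markers 8 were counted, and Ptprc (CD45), Itgam, Cd3e and Cd79a stayed at 10 counts or fewer in every library. The 4 other counted markers were all called higher in 4T1-Sca1+ cells, S100a8 by 5.20-fold, Csf1r by 2.26-fold, Cd74 by 1.92-fold and Cd68 by 1.56-fold. Of the exonic length of Csf1r, 15.1% overlaps Hmgxb3 on the opposite strand, which had 13657 counts in all against 236 for Csf1r. The part of Hmgxb3 reads in the Csf1r counts was not tested. Fibroblast markers, 6 of 8 counted, summed to 40.7 to 43.4 CPM and 24.4 to 28.1 CPM, mostly from Pdgfra. Pdgfra and Col1a1 were called higher in 4T1-Sca1+ cells (1.55 and 1.68-fold). Of the markers too low to test, Dcn had 49 counts over the 4T1-Sca1+ libraries against 4 over the 4T1-Sca1- libraries and Pdgfrb had 27 against 1, whereas Col1a2 had 19 against 18 and Fap 4 against 11. Endothelial markers, 4 of 5 counted, summed to 2.27 to 2.73 CPM and 2.75 to 4.13 CPM, and Tie1, the 1 marker tested, was lower in 4T1-Sca1+ cells (log2 fold change -0.60 ± 0.19), whereas Pecam1, too low to test, had 21 counts against 4. The part of RNA from other cells in the values of the members was not tested.

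The first steps of the sterol pathway, from acetyl-CoA to farnesyl pyrophosphate, were mixed. Of 7 enzymes, 3 were higher (Hmgcs1, Mvd and Fdps) and 4 did not pass (Acat2, Mvk, Pmvk and Idi1), with a median log2 fold change of 0.25. Hmgcs1 (ENSMUSG00000093930, chromosome 13, 119690379 to 119708260, plus strand) makes HMG-CoA, an early intermediate of the mevalonate route. Its normalized counts, in order of replicate, were 1501, 1436, 1395 and 1382 in 4T1-Sca1+ and 1074, 901, 959.5 and 938 in 4T1-Sca1- libraries. Every 4T1-Sca1+ library was above every 4T1-Sca1- library, giving a log2 fold change of 0.57 ± 0.06 (± standard error, as for all log2 fold changes here; adjusted p 1.40e-07, edgeR, n = 4 per group). Normalized counts are counts divided by a size factor for each library.

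Mvd (ENSMUSG00000006517, chromosome 8, 122433601 to 122443422, minus strand), which decarboxylates mevalonate pyrophosphate to the first isoprenoid unit, had 306, 297, 386 and 314 normalized counts in 4T1-Sca1+ and 188, 212, 245 and 236 in 4T1-Sca1- libraries. The groups did not overlap, although 4T1-Sca1+ replicate 3 was well above the others. The log2 fold change was 0.58 ± 0.10 (adjusted p 5.67e-05, edgeR), and it was 0.38 with GC-corrected offsets. Fdps (ENSMUSG00000059743, chromosome 3, 89093588 to 89101959, minus strand) joins isoprenoid units into farnesyl pyrophosphate, from which sterols and protein prenyl groups are made. Its normalized counts were 783, 794, 686 and 768 against 576, 502, 532 and 568. Here 4T1-Sca1+ replicate 3 was the lowest of its group but above every 4T1-Sca1- library, and the log2 fold change was 0.49 ± 0.06 (adjusted p 3.89e-06). Of the exonic length of Fdps, 26.7% is shared with Gm43738 on the same strand, which was not counted.

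The other mevalonate enzymes gave smaller or less even differences. Acat2, which joins acetyl-CoA units, had 794 ± 38.4 and 776 ± 45.6 normalized counts (SD, n = 4), and its log2 fold change had a 95% interval of -0.07 to 0.17. For Mvk, mevalonate kinase, the means were 423 ± 66.8 and 401 ± 42.4, with an interval of -0.12 to 0.29, and the estimate changed sign without 4T1-Sca1+ replicate 3 (-0.028) and with GC-corrected offsets (-0.045). Pmvk, which adds the next phosphate, had 404, 367, 311 and 332 against 282, 322, 323 and 319.6 normalized counts. The groups overlapped in 1 library of 4T1-Sca1+, and the log2 fold change of 0.20 ± 0.08 just missed the threshold with an adjusted p of 0.05015 (edgeR). Without 4T1-Sca1+ replicate 3 and 4T1-Sca1- replicate 2 it was 0.26 with an adjusted p of 0.0073, whereas GC-corrected offsets gave 0.06. Idi1, the isomerase of the isoprenoid units, was the least abundant member per length. It had 101, 106, 121 and 115 against 102, 104, 69.0 and 99.3 normalized counts, and the interval of its log2 fold change ran from -0.02 to 0.51. With GC-corrected offsets it passed, at 0.35 (adjusted p 0.0164).

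From squalene onward the enzymes were higher more evenly, with 9 of 11 higher, Sc5d lower and Dhcr7 not called, and a median log2 fold change of 0.40. Sqle (ENSMUSG00000022351, chromosome 15, 59315077 to 59331192, plus strand), squalene epoxidase, which adds the first oxygen of the sterol branch, had 2482, 2403, 2406 and 2424 normalized counts in 4T1-Sca1+ and 1477, 1442, 1408 and 1444 in 4T1-Sca1- libraries. The gap between the groups was many times the spread within them. The log2 fold change of 0.76 ± 0.04 (adjusted p 8.37e-11, edgeR) was the highest of the sterol enzymes, and it stayed between 0.75 and 0.81 over all alternative settings.

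Fdft1 (ENSMUSG00000021273, chromosome 14, 63145150 to 63179578, minus strand), squalene synthase, commits farnesyl pyrophosphate to sterols. Its normalized counts were 1061, 1045, 1059 and 1082 against 720.1, 708, 744 and 704, without overlap, for a log2 fold change of 0.58 ± 0.05 (adjusted p 1.84e-08). Of its exonic length, 18.3% overlaps Ctsb on the opposite strand. The kit does not keep strand, so reads there cannot be assigned, and Ctsb itself had a log2 fold change of 0.07 (adjusted p 0.219). Lss, lanosterol synthase, which closes the rings, had 928, 907, 915 and 901 against 639, 699, 652 and 719 normalized counts, with a log2 fold change of 0.44 ± 0.05. It was separated cleanly as well.

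The enzymes that trim and rearrange lanosterol followed. Cyp51, the lanosterol demethylase, had 1539 ± 47.7 and 1215 ± 37.1 normalized counts (SD, n = 4) and a log2 fold change of 0.36 ± 0.05. Msmo1, the sterol methyl oxidase, had 1228 ± 39.2 and 902 ± 46.4, for 0.46 ± 0.05. Nsdhl, the dehydrogenase that acts with it, had 512 ± 14.9 and 419 ± 9.42, for 0.30 ± 0.06. Hsd17b7, the ketosteroid reductase that completes this demethylation, had the second highest log2 fold change of the sterol enzymes (0.60 ± 0.07), from 489.9, 452, 458 and 494 against 342, 299.8, 294 and 328 normalized counts. Tm7sf2, a sterol reductase, was one of the less abundant members (199 ± 15.0 and 159 ± 11.3), and its log2 fold change of 0.34 ± 0.09 (adjusted p 0.00296) rests on a gene that shares 12.1% of its exonic length with Vps51 on the same strand, whose own value was 0.21. Ebp, the sterol isomerase, had 585 ± 29.6 and 446 ± 27.2 normalized counts, with a log2 fold change of 0.40 ± 0.06. None of these 6 enzymes had overlapping groups, and each kept its call in all 20 alternative settings.

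The last steps did not follow the rest. Sc5d (ENSMUSG00000032018, chromosome 9, 42251595 to 42264256, minus strand), which introduces a double bond into the sterol rings, had 929.5, 924, 887 and 898 normalized counts in 4T1-Sca1+ and 1068, 1000.02, 1031 and 1038 in 4T1-Sca1- libraries. All 4T1-Sca1+ libraries were below all 4T1-Sca1- libraries, and the log2 fold change was -0.17 ± 0.05 (adjusted p 0.00495, edgeR). GC-corrected offsets brought it to -0.08 (adjusted p 0.123), which did not pass. Dhcr7, the reductase that forms cholesterol from its immediate precursor, had 796, 792, 839.8 and 737 against 775, 849, 840.4 and 802 normalized counts, with overlapping groups and a 95% interval of -0.15 to 0.08 for the log2 fold change.

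**Figure D2:**
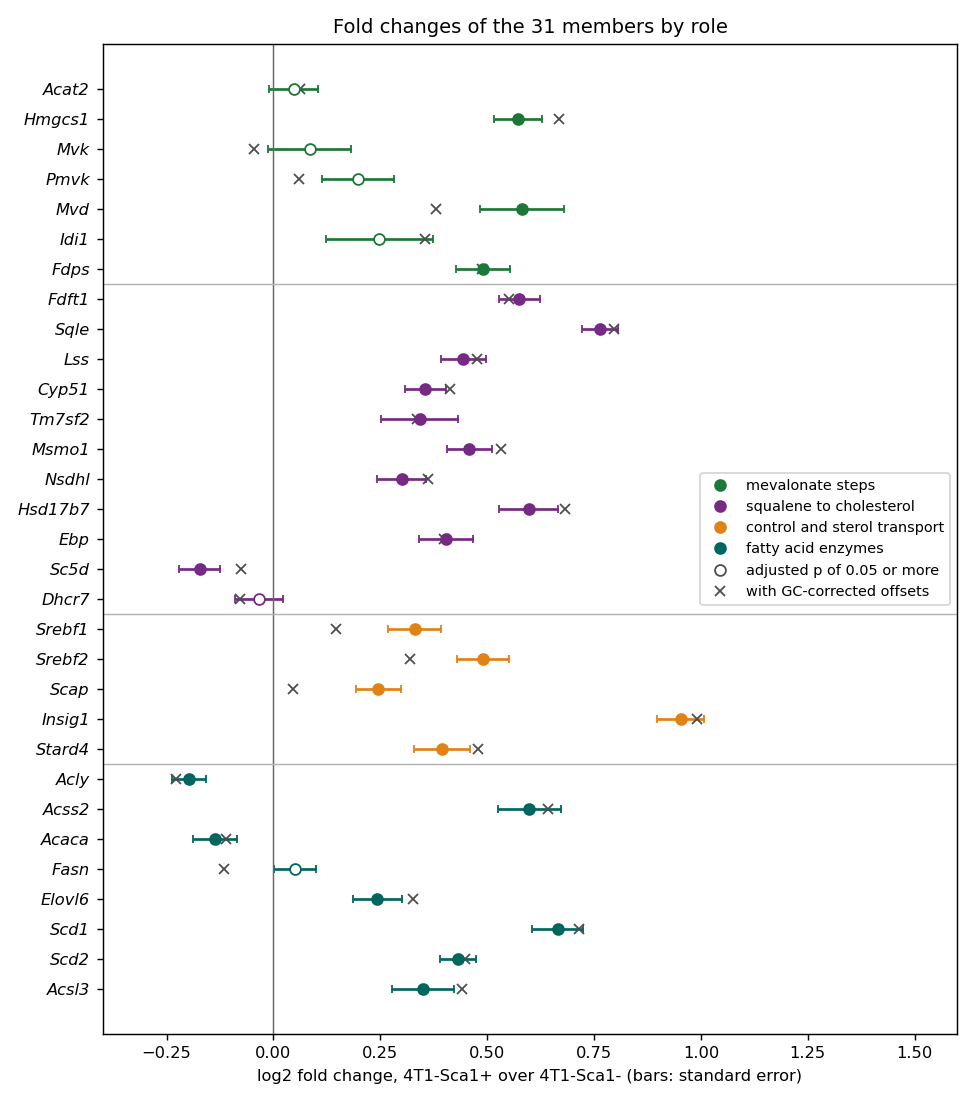
Log2 fold changes (horizontal axis, 4T1-Sca1+ over 4T1-Sca1-, with standard errors) of the 31 members in pathway order, coloured by role; open circles did not pass, and crosses give the estimate with GC-corrected offsets. Insig1 lies farthest right at 0.95 and Acly farthest left at -0.20. Among the larger shifts, the crosses of Srebf1, Srebf2, Scap, Mvd, Fasn, Pmvk and Mvk lie to the left of their circles. Those of Hmgcs1, Hsd17b7, Stard4, Msmo1, Acsl3, Elovl6, Idi1 and Sc5d lie to the right.

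The 5 control and transport genes were all higher, with a median log2 fold change of 0.40. Insig1 (ENSMUSG00000045294, chromosome 5, 28071363 to 28078662, plus strand), which retains the Scap complex in the endoplasmic reticulum and is itself a target of SREBP, had the highest fold change of all members. Its normalized counts were 1124, 1128, 1242 and 1065 in 4T1-Sca1+ and 591, 612, 578 and 595 in 4T1-Sca1- libraries, without overlap, and the log2 fold change was 0.95 ± 0.06 (1.93-fold, adjusted p 1.58e-10, edgeR). Across alternative settings it ran from 0.91 to 0.99. The related gene Insig2, no member, had a log2 fold change of 0.02 ± 0.06 (adjusted p 0.773).

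Srebf2 (ENSMUSG00000022463, chromosome 15, 82147181 to 82205379, plus strand) had 3741, 3777, 4459.5 and 3763 normalized counts in 4T1-Sca1+ and 2692, 3118, 2658 and 2842 in 4T1-Sca1- libraries. The highest library of each group was the one with the GC trend. The log2 fold change was 0.49 ± 0.06 (adjusted p 2.22e-06, edgeR), 0.47 without those 2 libraries and 0.32 with GC-corrected offsets. Srebf1 (ENSMUSG00000020538, chromosome 11, 60199089 to 60222581, minus strand) had 2848, 2823, 3368 and 2819 against 2286, 2647, 2265 and 2315, with the same 2 libraries highest. Its log2 fold change was 0.33 ± 0.06 (adjusted p 0.000179), 0.31 without them and 0.15 with GC-corrected offsets. Isoforms of Srebf1 are not resolved in counts per gene.

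Srebf2 rose more than Srebf1. The ratio of Srebf1 to Srebf2 counts within a library, which needs no scaling, was 0.761, 0.748, 0.755 and 0.749 in 4T1-Sca1+ and 0.849, 0.849, 0.852 and 0.814 in 4T1-Sca1- libraries. The ranges did not overlap, and the log2 ratios differed by -0.16 (exact permutation test, two-sided, p = 0.0286, adjusted over 2 ratios 0.0286, n = 4 per group), the smallest p that 4 against 4 libraries can give. Both genes have nearly the same GC content (58.4% and 57.9%).

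Scap, the escort of SREBP, had 3029.9, 2919, 3299 and 2971 against 2426, 2804, 2532 and 2637 normalized counts, with a log2 fold change of 0.25 ± 0.05 (adjusted p 0.00056, edgeR). It is the member with the highest GC content, and its call was lost with GC-corrected offsets (0.04, adjusted p 0.294), though not without the 2 libraries with the GC trend (0.24). Stard4, which carries cholesterol through the cytosol, had 420.4, 471, 462 and 432 against 321, 343, 349.5 and 357 normalized counts. The groups were separate, with a log2 fold change of 0.40 ± 0.07 (adjusted p 5.01e-05).

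Of the 8 fatty acid enzymes, 5 were higher (Acss2, Elovl6, Scd1, Scd2 and Acsl3), 2 were lower (Acly and Acaca) and Fasn did not pass, with a median log2 fold change of 0.30. Among these 8, the steps from citrate to palmitate were lower or not called, and the enzymes that use acetate, elongate, desaturate or activate fatty acids were higher. This ordering was seen in the values, and no test was made of it. It did not hold for all further genes of such steps. Acacb, an acetyl-CoA carboxylase gene, was higher (log2 fold change 0.88), and the elongase genes Elovl1, Elovl5 and Elovl7 were lower (-0.19, -0.16 and -0.46). Acsl4 and Fads1 were higher (0.71 and 0.45), and Acsl1, Acsl5 and Fads2 did not pass.

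Acly (ENSMUSG00000020917, chromosome 11, 100476353 to 100528000, minus strand) cleaves citrate to cytosolic acetyl-CoA, which feeds both pathways. It had 7722, 7569, 7646 and 7496 normalized counts in 4T1-Sca1+ and 8424, 9075, 8822 and 8904 in 4T1-Sca1- libraries. All 4T1-Sca1+ libraries were lower, by a log2 fold change of -0.20 ± 0.04 (adjusted p 0.000371, edgeR), and the call held in all alternative settings. Acss2, which makes the same acetyl-CoA from acetate, went the other way, with 391, 448, 441 and 401 against 295, 299.8, 254 and 267 normalized counts, with a log2 fold change of 0.60 ± 0.07 (adjusted p 2.06e-06). Per kilobase of transcript, Acly was far more abundant, with 1732 ± 22.2 normalized counts per kb in 4T1-Sca1+ and 2005 ± 62.8 in 4T1-Sca1- cells, against 143 ± 9.65 and 95.2 ± 7.55 for Acss2 (SD, n = 4).

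Acaca, the acetyl-CoA carboxylase that commits carbon to fatty acids, had 1334, 1382, 1259.8 and 1249 against 1389.5, 1505, 1375 and 1526 normalized counts. The groups overlapped, and the log2 fold change of -0.14 ± 0.05 (adjusted p 0.0309, edgeR) lost its call without 4T1-Sca1+ replicate 4, without 4T1-Sca1- replicate 2 or 4, with library totals alone and without the 2 libraries with the GC trend (adjusted p 0.0723). Fasn (ENSMUSG00000025153, chromosome 11, 120805846 to 120824547, minus strand), fatty acid synthase, which builds palmitate, had 23407, 23150.3, 24846 and 21901 against 21371, 24504, 21881 and 23180.4. The ranges overlapped almost fully, and the 95% interval of the log2 fold change was -0.05 to 0.15 (adjusted p 0.391). It is GC-rich (57.9%), and GC-corrected offsets turned its estimate to -0.12 (adjusted p 0.00635), so its direction was not settled.

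**Figure D3:**
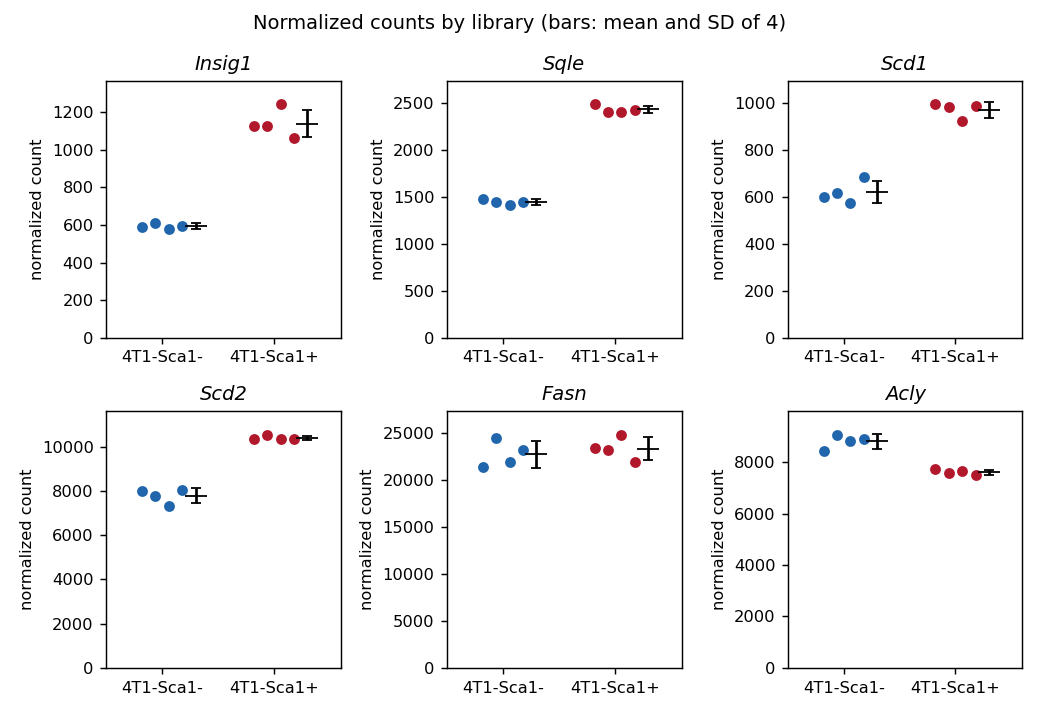
Normalized counts (vertical axis, from 0) of 6 members in each library, with the mean and SD of 4 libraries beside them. Insig1, Sqle, Scd1 and Scd2 are higher in every 4T1-Sca1+ library, Acly is lower in each, and Fasn overlaps between 21371 and 24846.

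The modifying enzymes among the members were higher. Elovl6, which elongates palmitate, had 1404, 1540.3, 1361 and 1498 against 1338, 1171, 1163 and 1274 normalized counts, with a log2 fold change of 0.24 ± 0.06 (adjusted p 0.00131, edgeR). The lowest 4T1-Sca1+ library lay only just above the highest 4T1-Sca1- library. Acsl3, which activates fatty acids at lipid droplets, had 995, 1088, 835 and 974 against 815, 718, 736 and 816 and a log2 fold change of 0.35 ± 0.07 (adjusted p 0.000457). Its lowest 4T1-Sca1+ library was replicate 3, and 5.60% of its exonic length is shared with Utp14b, whose log2 fold change was 0.58.

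The stearoyl-CoA desaturases, which make monounsaturated fatty acids, are represented by neighbouring genes on chromosome 19. Scd1 (ENSMUSG00000037071, chromosome 19, 44394455 to 44407879, minus strand) had 994, 984, 921 and 986 normalized counts in 4T1-Sca1+ and 599.7, 617, 574 and 684 in 4T1-Sca1- libraries, and a log2 fold change of 0.66 ± 0.06 (adjusted p 3.61e-08, edgeR). Scd2 (ENSMUSG00000025203, chromosome 19, 44293674 to 44306864, plus strand) had 10351, 10549.6, 10368 and 10328 against 8003, 7784, 7316 and 8031, and a log2 fold change of 0.43 ± 0.04 (adjusted p 1.06e-07). Both separated the groups without overlap, and both are similar enough in sequence that reads may be shared between them.

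Scd1 rose more than Scd2. For each Scd1 count there were 10.4, 10.7, 11.3 and 10.5 Scd2 counts in the 4T1-Sca1+ libraries and 13.3, 12.6, 12.7 and 11.7 in the 4T1-Sca1- libraries. The log2 ratios of Scd1 to Scd2 differed by 0.23 (exact permutation test, two-sided, p = 0.0286, adjusted 0.0286, n = 4 per group). Per kb of transcript, Scd1 was at 201 ± 7.02 and 128 ± 9.67 normalized counts (SD, n = 4), well below Scd2 at 1906 ± 18.6 and 1427 ± 60.7.

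**Figure D4:**
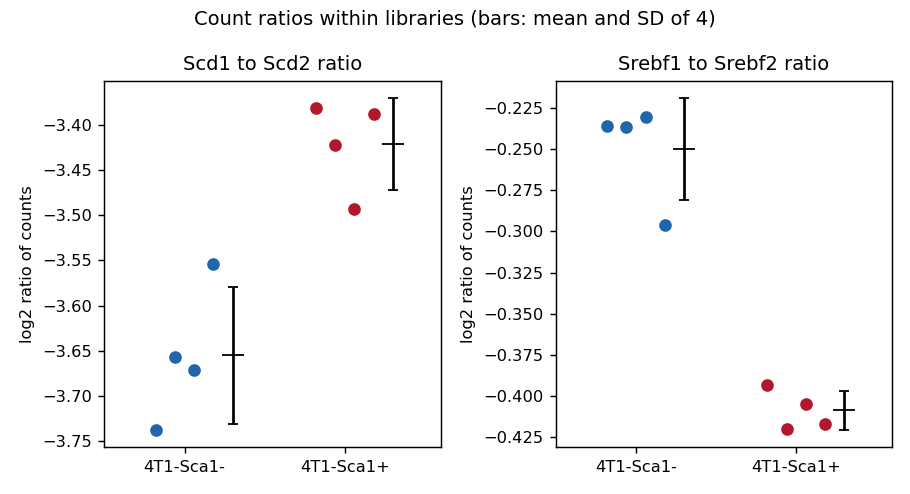
Log2 ratio of counts within each library (vertical axes, not starting at 0) for Scd1 over Scd2 and for Srebf1 over Srebf2, with the mean and SD of 4 libraries. The 4T1-Sca1+ libraries lie above the 4T1-Sca1- libraries for Scd1 over Scd2, by 0.23 on average, and below them for Srebf1 over Srebf2, by a difference of -0.16.

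Set side by side, sterol and fatty acid enzymes differed little in their typical fold change but more in their summed level. Among sterol enzymes 12 of 18 were higher and 1 lower, with a median log2 fold change of 0.38. Among fatty acid enzymes 5 of 8 were higher and 2 lower, with a median of 0.30. With GC-corrected offsets these medians were 0.39 and 0.38. The sterol enzymes together took 986 to 1010 CPM in 4T1-Sca1+ and 719 to 750 CPM in 4T1-Sca1- libraries, a ratio of means of 1.34. The fatty acid enzymes took 3019 to 3178 CPM and 2736 to 2911 CPM, a ratio of 1.11, and 1522 to 1584 CPM and 1315 to 1389 CPM without Fasn, a ratio of 1.15. On this scale of library totals, neither sum overlapped between the groups. Divided by size factors instead, the sums of all fatty acid enzymes do overlap. The sum of 4T1-Sca1+ replicate 4 (51228 counts, size factor 1.14) then falls below that of 4T1-Sca1- replicate 2 (44485 counts, size factor 0.974). The summed level of fatty acid enzymes is dominated by Fasn, Scd2 and Acly, of which only Scd2 was higher. The difference between the lists was not tested.

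Compared per length, as normalized counts per kb of the principal transcript, the most abundant members were the same in both groups. Fasn ranked first, at 2321 ± 120.2 in 4T1-Sca1+ and 2262 ± 139.7 in 4T1-Sca1- cells (SD, n = 4). Scd2 (1906 ± 18.6 and 1427 ± 60.7) and Acly followed, with Scd2 above Acly in 4T1-Sca1+ and below it in 4T1-Sca1- cells, in both cases by more than their SDs. Sqle was the most abundant sterol enzyme, at 881 ± 13.4 and 523 ± 10.3, and held ranks 4 and 7 of the 31 in these groups. Srebf2 (775 ± 68.9 and 557 ± 41.3), Scap (723 ± 39.9 and 615 ± 38.1) and Srebf1 (689.6 ± 62.7 and 553 ± 41.9) were neighbours in this order, and their means ± SD overlapped in both groups. Insig1 moved from rank 17 in 4T1-Sca1- to rank 10 in 4T1-Sca1+ cells. The lowest levels per kb were those of Idi1 (36.5 ± 2.88 and 30.9 ± 5.44) and Stard4 (87.6 ± 4.72 and 67.2 ± 3.07).

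**Figure D5:**
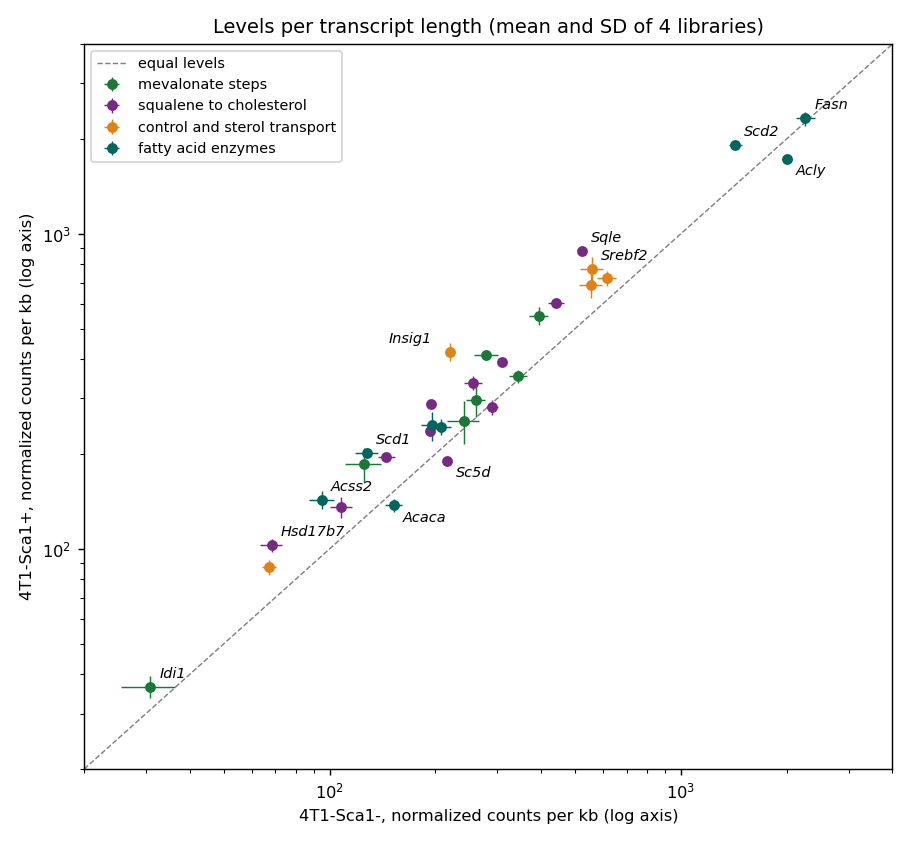
Mean level per transcript length of each member in 4T1-Sca1- (horizontal axis) and 4T1-Sca1+ cells (vertical axis), in normalized counts per kb on log axes, with SDs of 4 libraries. Most members lie above the dashed line of equal levels; Acly, Sc5d, Acaca and Dhcr7 lie below it, the last of them within its SD, and Fasn lies close to it at the top.

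Other genes of the same pathways were read from lists chosen by role. Of 15 further sterol and SREBP related genes, 6 were higher, 3 were lower and 6 did not pass, with a median log2 fold change of 0.04, against 0.0074 over all tested genes. Over all tested genes 31.3% were higher and 30.2% lower, which is the background for the counts of each list. Mbtps1, the protease that first cleaves SREBP, had the highest value of that list among genes averaging at least 100 normalized counts (0.51 ± 0.04), and Tmem97, a sterol-responsive membrane protein, the lowest (-0.31 ± 0.05).

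Among 6 genes of LXR, the receptor for oxysterols, and of sterol efflux, 5 were tested, of which 3 were higher and 2 did not pass. Apoe, a lipid carrier, had 278, 257, 308 and 284 against 131, 149.9, 142 and 135 normalized counts, for 1.03 ± 0.09 on the log2 scale. The groups were far apart. Nr1h2, one of the 2 LXR genes, had the lowest log2 fold change of the genes called in this list (1369 ± 137 against 922 ± 99.9 normalized counts, SD, n = 4; 0.58 ± 0.07). Abca1, the cholesterol efflux pump, had a larger log2 fold change (2.52 ± 0.44) but rests on few reads, with 12 counts in all over the 4T1-Sca1- libraries (26.5, 16.8, 19.0 and 12.3 against 6.69, 1.03, 3.34 and 1.14 normalized counts).

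Of 20 further fatty acid genes, 18 were tested, with 7 higher and 4 lower and a median log2 fold change of 0.10. Acsl4, which activates polyunsaturated fatty acids, was the highest among those averaging at least 100 (0.71 ± 0.07), and the elongase Elovl7 the lowest (-0.46 ± 0.07). Fads1, a desaturase of polyunsaturated fatty acids, was higher (0.45 ± 0.05), whereas its neighbour Fads2 had 0.01 ± 0.05 (adjusted p 0.902, edgeR). Me1, a source of NADPH, and Slc25a1, which exports citrate for Acly, had log2 fold changes of 0.16 ± 0.08 (adjusted p 0.0824) and 0.07 ± 0.06 (adjusted p 0.295).

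Of 14 genes of fatty acid oxidation tested, 4 were higher and 4 lower, a share in each direction close to the 31.3% and 30.2% over all tested genes, with a median of 0.02. Cpt1a, the gate of mitochondrial import, had a log2 fold change of -0.04 ± 0.05 (adjusted p 0.511), Cpt2 was highest (0.45 ± 0.07) and Etfdh, which passes electrons to ubiquinone, lowest (-0.69 ± 0.06). Of 9 lipid storage genes tested, 4 were higher and 2 lower, with a median of 0.09. Lpin1, a phosphatidate phosphatase, led them with 216, 227, 225 and 235 against 78.3, 86.2, 81.3 and 113 normalized counts, with a log2 fold change of 1.35 ± 0.11. Gpam, the first acyltransferase of glycerolipid synthesis, was lowest (-0.20 ± 0.07).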

How the data were processed

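RNA from 4 libraries of 4T1-Sca1+ and 4 of 4T1-Sca1- cells was sequenced on a NextSeq after TruSeq preparation, per the labels. The submitters' processing notes name cutadapt 1.16, STAR 2.5.3a and the builds GRCm38 and mm10. The counting tool and its use of strand are not given in the sources used here. The authors deposited raw counts per Ensembl gene for 16341 genes and a table of normalized signal for 15372 of them, which equalled the counts divided by DESeq2 size factors. Left out of it were 969 genes with a single count.

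Groups came from the labels. Counts were tested with edgeR 4.0.16 in R 4.3.3 (filterByExpr, TMM, glmQLFit and glmQLFTest, two-sided, no covariate), with Benjamini-Hochberg adjustment over 11717 genes and an adjusted p under 0.05 called. The standard error was the absolute log2 fold change divided by the square root of F. Intervals are 95%. Ratios were compared by exact permutation over libraries. Annotation was GENCODE M21 on GRCm38, which matched 16202 IDs and missed 139. GC-corrected offsets removed the trend of each library on transcript GC content, fitted to its deviations from the mean of all libraries of both groups. They therefore also remove any difference between the groups that follows GC content, whatever its source. Fits were tested on simulated data.

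The text gives all 31 members, and from each other list the called gene with the highest and lowest log2 fold change at a mean normalized count of at least 100, plus Insig2, Abca1, Me1, Slc25a1, Fads1, Fads2 and Cpt1a. Acacb, Elovl1, Elovl5, Acsl1 and Acsl5 were added to set the fatty acid members beside further genes of such steps. Some genes of these pathways are not reported here and were left out of the lists' counts. Members and lists were chosen with earlier results of these data known. Genes with close copies (Scd1, Scd2, Acat2) or overlapping exons are uncertain to that extent. Beside the overlaps given above, Scap (13.2% of exonic length), Hmgcs1 (12.1%) and Idi1 (9.22%) overlap genes on the opposite strand that were not counted. Smaller overlaps fall on Acss2, Cyp51, Lss, Srebf1, Scd2 and Elovl6. Alternatives were DESeq2 size factors, library totals alone, a minimum of 10 counts per library or no minimum, the test of DESeq2 1.42.0, limma-voom and limma 3.58.1 on log2(normalized signal + 1) or + 0.5, the replicate number as a block, GC-corrected offsets, an adjusted p under 0.01, leaving out each library and, for the ratios, 0.5 added counts. Depth was 13561804 to 16968215 counts per library, and reads carried no molecular identifiers named in the labels, so they need not be independent molecules.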

Additional observations from a re-analysis of the deposited data

Results flagged for a closer look

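By Dixon's criterion, 62 groups of 4 values were examined, and 7 held a library distant from its fellows, where chance gives about 3.1. Of the 7, 4 fall on the libraries with the GC trend. In 4T1-Sca1+ replicate 3, Srebf1 had a normalized count of 3368 against 2819 to 2848 in the others, Srebf2 4459.5 against 3741 to 3777, and Scd1 921 against 984 to 994. In 4T1-Sca1- replicate 2, Srebf1 had 2647 against 2265 to 2315. In 4T1-Sca1- replicate 1, Pmvk had 282 against 319.6 to 323, and Ebp 406 against 457 to 462. In 4T1-Sca1- replicate 3, Idi1 had 69.0 against 99.3 to 104. The part of GC content in these values was not tested.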

How the results depend on the processing

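The fit without 4T1-Sca1+ replicate 3 and 4T1-Sca1- replicate 2 was chosen after seeing the data. Over 20 alternative settings 22 to 23 members were higher and 2 to 3 lower, and leaving out each library in turn gave the same ranges. For 23 of the 31 members direction and call held in every setting. Estimates that changed sign were those of Mvk (-0.045 with GC-corrected offsets, and -0.028 to 0.1502 when 1 library was left out), Dhcr7 (0.0093 with library totals alone) and Fasn (-0.117 with GC-corrected offsets). The cause was not tested. The other 5 members that changed were Pmvk and Idi1, which passed in some settings, and Sc5d, Scap and Acaca, whose calls were lost in some.

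The median log2 fold change of sterol enzymes was 0.423 with library totals alone and 0.345 to 0.402 when each library was left out in turn. That of fatty acid enzymes was 0.383 with GC-corrected offsets and 0.252 to 0.341 in the same way. Leaving out 1 library, the Scd1 to Scd2 difference ran from 0.206 to 0.267 (exact permutation p from 0.0286 to 0.0571) and the Srebf1 to Srebf2 difference from -0.174 to -0.153.

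Blocking on replicate number (replicate block) left 22 members higher and 3 lower, and no call changed. Same-numbered libraries' deviations correlated at 0.0957, -0.1498, -0.034 and -0.0011, and 1 of 4 correlated best with its own number. With 4 pairs this cannot tell whether same-numbered libraries came from the same sort, which the labels do not say. A sign-flip test within numbers gave the same differences, 0.234 for Scd1 to Scd2 and -0.159 for Srebf1 to Srebf2, at p = 0.125, the smallest that exact test can give with 4 pairs. Depth limits Idi1 most, with as few as 62 counts in a library.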
